A study of Mus musculus with 8 samples.

Results

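The genes described here encode the interleukin-6 (IL-6) family cytokines Il6, Lif and Osm with their shared receptor chain Il6st, the subunits of the interleukin-12 (IL-12) family (Il12a, Il12b, Il23a, Il27 and Ebi3), and the anti-inflammatory cytokine Il10. The list holds 10 genes, set against 22460 genes tested on the same arrays. They were chosen by name, and a probe was taken for a gene where the transcript it was designed against carried that symbol in RefSeq. A probe was found for 9 of the 10. No probe could be given to Il12b in this way, so no value is given for it. Each gene was read by 1 probe, printed as a single spot for 7 genes, as 2 spots for Il6 and as 10 spots for Il10.

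Messenger RNA came from BV-2, mouse microglia made immortal by retroviral infection, which stand in for the brain's resident macrophages and, as a single line, model them only in part. Flasks received lipopolysaccharide together with HF, the hexane fraction made from Amauroderma rugosum, a mushroom (LPS+HF), lipopolysaccharide alone (LPS), HF alone (HF) or neither (control). LPS, the endotoxin of Gram-negative bacteria, was used at 1 µg/mL and HF, a mixture whose compounds the labels do not name, at 100 µg/mL, both added together for 24 h. Each of the 4 groups had 2 one-colour Agilent arrays, 8 in all, which the submitters call biological replicates. Nothing says that the 2 came from independent cultures, so the errors and adjusted p-values below cover the spread between these arrays, and the number of arrays limits their precision.

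IL-6, leukaemia inhibitory factor (Lif) and oncostatin M (Osm) are secreted proteins that signal through receptor complexes containing gp130, the product of Il6st, which activates Janus kinases and the transcription factor STAT3. The IL-12 family is built from paired subunits: Il12b pairs with Il12a to form IL-12 and with Il23a to form IL-23, while Ebi3 pairs with Il27 to form IL-27 and with Il12a to form IL-35. IL-10 also signals through STAT3 and restrains inflammatory gene expression in macrophages, and macrophages and microglia given LPS are known producers of IL-6.

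Of these genes, Il6 and Ebi3 were the ones that passed a test for LPS, so the RefSeq sequence (GRCm38.p6) of the 250 bases before the start of each is shown, read 5′ to 3′ on the + strand. The capitals mark a match to the NF-kB motif GGNNTTTCC, searched on both strands, where N is any base. The Il6 window is chr5:30012864-30013113 and the Ebi3 window is chr17:55952373-55952622.
Il6: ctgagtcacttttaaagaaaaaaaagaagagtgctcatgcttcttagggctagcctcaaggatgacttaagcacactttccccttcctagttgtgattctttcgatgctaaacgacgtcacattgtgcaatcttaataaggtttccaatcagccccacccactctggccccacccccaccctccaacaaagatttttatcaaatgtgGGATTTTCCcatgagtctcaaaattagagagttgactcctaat
Ebi3: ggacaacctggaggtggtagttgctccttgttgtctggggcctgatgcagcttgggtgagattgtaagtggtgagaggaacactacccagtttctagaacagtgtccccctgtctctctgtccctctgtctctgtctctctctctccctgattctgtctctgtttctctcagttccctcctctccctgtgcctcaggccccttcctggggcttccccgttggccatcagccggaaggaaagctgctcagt
The Il6 match, GGATTTTCC, lay 43 to 35 bases before the start. A match to this motif was present in 4.93% of the 32851 windows of the same length in the table. RefSeq windows were at hand for 6 of the 10 genes (Il6, Il6st, Lif, Ebi3, Il12a and Il12b; 7 windows), and the match was found in the 1 of Il6. The Il6 window also held the AP-1 motif TGANTCA, 249 to 243 bases before the start, and the C/EBP motif TTNNGNAA, 128 to 121 bases before it. Lif held the AP-1 motif 228 to 222 bases before its start. These motifs were present in 6.75% and 36.8% of all windows. No window of the 6 genes held the STAT motif TTCNNNGAA, present in 7.02% of all windows, or the interferon response motif GAAANNGAA, present in 7.13%. A match describes the letters of the window and was not tested as a binding site.

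Repeated probes on control replicate 1 varied by 48.9% (coefficient of variation), against 3.77% to 8.06% on the 7 others. Control replicate 1 and HF replicate 1 were marked for evaluation in the quality report of the scanner software. Patches of control replicate 1 were dimmed before the scanner software's own trend correction. A spatial correction removes the local deviations that remain and masks spots in windows that were dimmed over 4-fold before that step, which were 16.8% of the spots of control replicate 1 and 0.857% of those of HF replicate 1. The SD of the difference between the 2 arrays of a group over all genes was 0.34 on the log2 scale for LPS+HF, 0.28 for LPS, 0.49 for HF and 0.99 for control. All arrays shared 1 slide, on which the arrays with HF lay in row 2 and those without HF in row 1. The arrays with LPS lay in columns 3 and 4 and those without LPS in columns 1 and 2. HF and slide row thus cannot be told apart, and neither can LPS and slide column. As to the labelled cell type, all 10 microglia and macrophage markers were above background on all 8 arrays. With LPS 3 of them were higher (Cd14, Adgre1 and Ptprc), beside 4.8% of all genes. For LPS+HF minus LPS 3 were lower, beside 3.26% of all genes: Cd14 at -0.92, Lyz2 at -1.59 and Ptprc at -0.83. The list median there was -0.57, beside -0.07 over all genes. For HF minus control 1 was lower, Aif1 at -1.44, beside 0.739% of all genes. The list median there was -0.55, beside -0.07. For LPS+HF minus control 2 were higher and 3 lower, beside 1.92% and 3.17% of all genes. The part of these markers in the cytokine values was not tested. The summed level of the 10 markers, relative to the 75th percentile of each array, was 725 to 801 on LPS+HF arrays, 921 to 949 on LPS arrays, 651 to 656 on HF arrays and 896 to 989 on control arrays.

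Levels are log2 values of the spot signal relative to the array's 75th percentile, so that 0 means a signal at that percentile, and a level of 1 gene is not set against that of another since probes differ in brightness. Of the 9 genes with a probe, 4 (Il6st, Il27, Ebi3 and Osm) were above background on all 8 arrays. A further pair passed the filter through part of the arrays: Il6 was above background on the 4 arrays that received LPS, and Il10 on both LPS+HF arrays. The 3 others, Il12a, Il23a and Lif, were above background on at most 1 array and were not tested. The plot of the levels by array shows all 9.

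**Figure D1:**
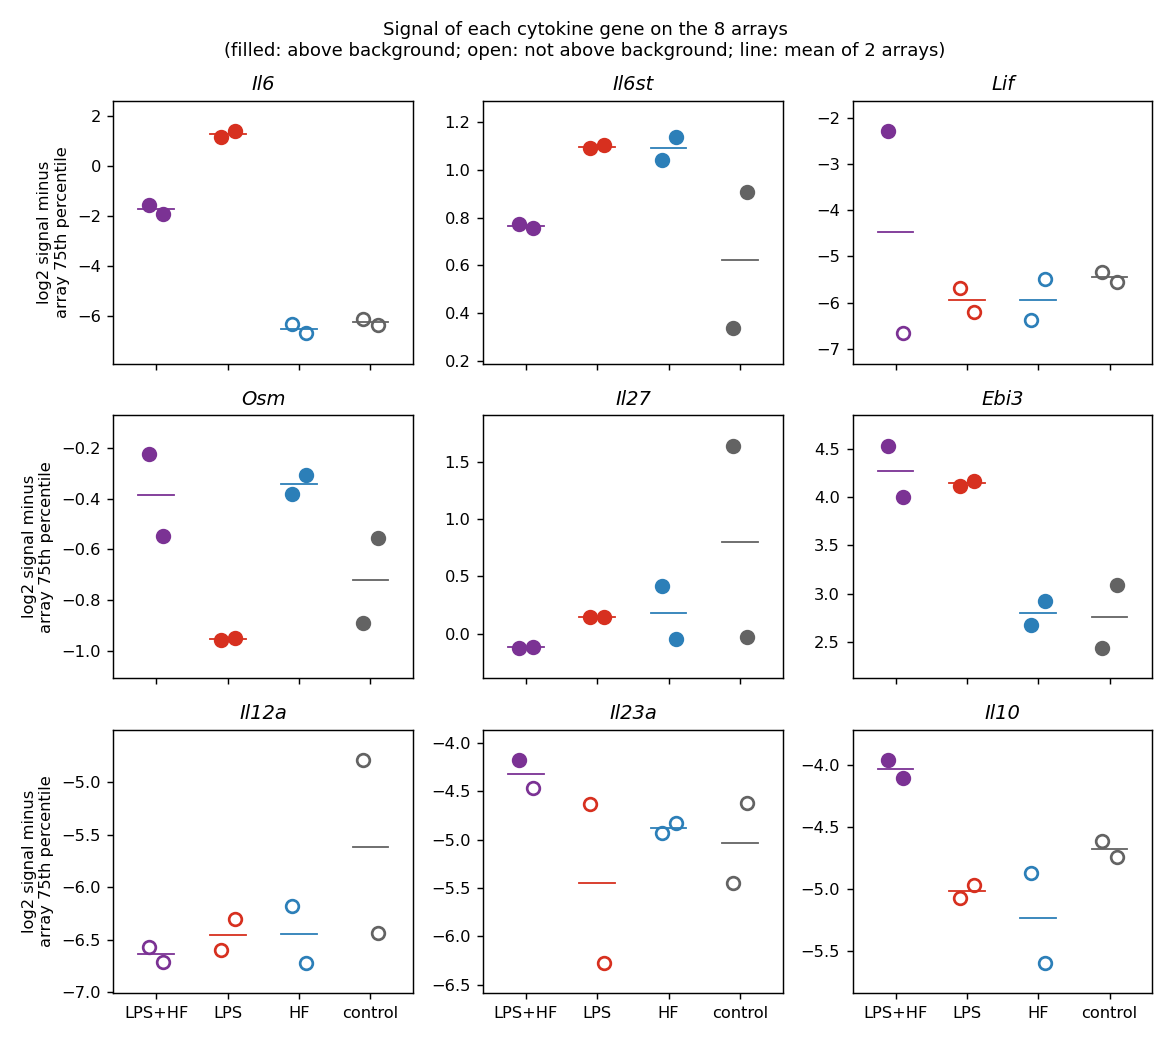
Log2 signal relative to the array's 75th percentile (vertical axis, own range in each panel) for each of the 9 genes with a probe, in the 4 groups of 2 arrays; filled points are arrays where the probe was above background, open points where it was not, and lines are group means. Il6 was at -1.55 and -1.90 on LPS+HF arrays and at 1.16 and 1.40 on LPS arrays, and was not above background without LPS.

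Il6, the cytokine that gives the family its name, was induced by LPS and was 8.04-fold lower when HF was added with it. Its level was -1.55 and -1.90 on the LPS+HF arrays, 1.16 and 1.40 on the LPS arrays, -6.30 and -6.68 on the HF arrays and -6.11 and -6.36 on the control arrays. The 4 arrays that received LPS were far above the 4 others, and the LPS+HF and LPS arrays did not overlap. Before scaling, its processed signal was 180 and 122 on LPS+HF arrays, 632 and 757 on LPS arrays, 4.38 and 4.59 on HF arrays and 3.56 and 3.18 on control arrays. The 2 spots of the probe stood close together where it was above background, at 178 and 182 on LPS+HF replicate 1 and at 597 and 669 on LPS replicate 1.

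The order of the groups for Il6 was LPS, then LPS+HF, then the HF and control groups, which lay below background and overlapped. LPS minus control was 7.52 ± 0.22 (SE, limma over all 8 arrays, adjusted p = 0.000158). Since control was below background, LPS is given as at least 56.3-fold higher. Here and below, least folds are set against the lowest signal above background on each array, which is an approximate limit. LPS+HF minus LPS was -3.01 ± 0.22 (adjusted p = 0.00801), with a 95% interval of -3.54 to -2.48. LPS+HF stayed at least 5.95-fold above HF (log2 difference 4.77, adjusted p = 0.000759) and at least 7.0-fold above control (4.51, adjusted p = 0.000802). HF minus control was -0.25 (adjusted p = 0.501), between values that were both below background. Il6 entered the tests only through groups that received LPS, where it had to be higher than in groups below background. The p-values of those groups against control and HF therefore support no direction by themselves, and the rise is read from the levels and the least folds.

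The call for Il6 between LPS+HF and LPS rested on having both LPS arrays. It was lost without LPS replicate 1 (-3.13, adjusted p = 0.109), without LPS replicate 2 (-2.89, adjusted p = 0.114) and without LPS+HF replicate 2 (-2.83, adjusted p = 0.0767), and the difference kept its direction in all 21 alternative fits. No gene at all passed in that comparison without LPS replicate 1 or without LPS replicate 2 (limma; 2981 and 3115 genes at an unadjusted p under 0.05). The background correction by normexp (with quantile normalization) gave -2.28 for LPS+HF minus LPS of Il6 (adjusted p = 0.00837), a smaller difference than the -3.01 above, with 3.78 for LPS minus control, and 1.56 and 1.5 for LPS+HF minus HF and minus control.

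The interaction, which asks whether the LPS response of Il6 was unequal with and without HF, was -2.75 ± 0.31 and missed the threshold (adjusted p = 0.0860), in a comparison where 0.0534% of all genes passed, 0.0134% higher and 0.0401% lower. After the spatial correction it was -2.76 (limma, adjusted p = 0.00991), when 816 of all 22460 genes passed. It passed in 3 of 20 alternative fits, and leaving out single arrays gave -2.94 to -2.56. The interaction of Il6 mixes measured levels with levels below background in the groups without LPS.

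Osm encodes a cytokine of macrophages and other leukocytes that acts through gp130 with the oncostatin M receptor. Its level was -0.22 and -0.55 on LPS+HF arrays, -0.96 and -0.95 on LPS arrays, -0.38 and -0.31 on HF arrays and -0.89 and -0.55 on control arrays. Both LPS+HF arrays were above both LPS arrays, while the LPS+HF and HF arrays overlapped. LPS+HF minus LPS was 0.57 ± 0.18 (1.48-fold) and missed the threshold (adjusted p = 0.131), with a 95% interval of 0.12 to 1.01. The spatial correction gave 0.64 with an adjusted p of 0.0144. The other differences of Osm lay between -0.23 for LPS minus control and 0.38 for HF minus control, and none passed.

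Lif, a cytokine named for its action on leukaemia cells, was above background on a single array. Its level was -2.29 and -6.66 on LPS+HF arrays, -5.69 and -6.20 on LPS arrays, -6.37 and -5.50 on HF arrays and -5.33 and -5.55 on control arrays. LPS+HF replicate 1 thus stood apart from its own replicate as well as from all other groups, with a processed signal of 107 on 1 spot, against 4.48 on LPS+HF replicate 2.

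Il6st, the gp130 chain through which all 3 of these cytokines signal, was well above background everywhere. Its level was 0.77 and 0.76 on LPS+HF arrays, 1.09 and 1.1 on LPS arrays, 1.04 and 1.14 on HF arrays and 0.34 and 0.91 on control arrays. The LPS and HF arrays overlapped, the LPS+HF arrays lay below both, and the control arrays spanned the LPS+HF values. LPS+HF minus LPS was -0.33 ± 0.21 (adjusted p = 0.395), with a 95% interval of -0.84 to 0.17, and LPS minus control was 0.47 ± 0.21 (adjusted p = 0.187). Its interaction was -0.80 ± 0.29 (adjusted p = 0.391). The spot on control replicate 1 lay in a window with a log2 deviation of -2.37 before trend correction and was masked by the spatial correction, which put LPS minus control at 0.32 (adjusted p = 0.133).

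Among the IL-12 family subunits, Ebi3 was higher in both groups that received LPS. Its level was 4.53 and 4.0 on LPS+HF arrays, 4.12 and 4.16 on LPS arrays, 2.67 and 2.92 on HF arrays and 2.44 and 3.09 on control arrays. The 4 arrays with LPS were all above the 4 without, whereas LPS+HF overlapped with LPS and HF with control. LPS minus control was 1.38 ± 0.28 (2.60-fold, adjusted p = 0.0326) and LPS+HF minus control was 1.5 ± 0.28 (2.84-fold, adjusted p = 0.0427). LPS+HF minus HF was of like size, 1.47 ± 0.28, and missed the threshold (adjusted p = 0.0939), though it passed after the spatial correction (1.44, adjusted p = 0.0110).

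Adding HF to LPS left no detectable difference in Ebi3. LPS+HF minus LPS was 0.13 ± 0.28 (adjusted p = 0.843), and its 95% interval of -0.56 to 0.81 contains neither a fall nor a rise of 1 log2 unit. HF minus control was 0.04 ± 0.28 (adjusted p = 0.950), and the interaction was 0.09 ± 0.40 (adjusted p = 0.928). The rise with LPS was close to the threshold: it passed in 10 of 22 alternative fits, with values from 0.84 to 1.73 and adjusted p-values from 0.00393 to 0.25. Without control replicate 1 it was 1.05 (adjusted p = 0.0410), and it was lost without LPS replicate 1 (1.40, adjusted p = 0.181), LPS replicate 2 (1.36, adjusted p = 0.185), either HF array (1.38, adjusted p = 0.0718) or either LPS+HF array (1.38, adjusted p = 0.0578). LPS+HF minus control was lost without either LPS array (1.5, adjusted p = 0.116), either HF array (1.5, adjusted p = 0.0934), LPS+HF replicate 1 (1.24, adjusted p = 0.238) or LPS+HF replicate 2 (1.77, adjusted p = 0.122).

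Il27, the partner of Ebi3 in IL-27, was above background on every array and passed in no comparison. Its level was -0.12 and -0.12 on LPS+HF arrays, 0.14 and 0.15 on LPS arrays, 0.41 and -0.05 on HF arrays and 1.64 and -0.03 on control arrays. The LPS+HF arrays lay below all others, by little, and control replicate 1 stood above all others. That spot lay in a window of control replicate 1 with a log2 deviation of -3.83 before trend correction and was masked by the spatial correction. LPS minus control was -0.66 ± 0.51 (adjusted p = 0.412) with it and 0.14 (adjusted p = 0.544) after the correction. The LPS+HF minus LPS difference was -0.26 ± 0.51 (adjusted p = 0.816), with a 95% interval of -1.52 to 0.99.

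The IL-12 and IL-23 subunits that had a probe, Il12a and Il23a, were at or below the detection limit in these cells. Il12b, which both cytokines share, was not measured. Il12a, which was not above background on any array, had levels of -6.57 and -6.71 on LPS+HF arrays, -6.60 and -6.31 on LPS arrays, -6.18 and -6.72 on HF arrays and -4.79 and -6.43 on control arrays. Il23a was above background on LPS+HF replicate 1 only, with levels of -4.18 and -4.47 on LPS+HF arrays, -4.64 and -6.27 on LPS arrays, -4.93 and -4.83 on HF arrays and -5.45 and -4.63 on control arrays. Both LPS+HF values of Il23a lay above the 6 others, by 0.16 at the least between LPS+HF replicate 2 and control replicate 2, and no test was made on a probe that the filter left out.

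Il10 was above background only where LPS and HF were given together. Its level was -3.96 and -4.10 on LPS+HF arrays, -5.07 and -4.97 on LPS arrays, -4.87 and -5.59 on HF arrays and -4.61 and -4.74 on control arrays. Both LPS+HF arrays were above the 6 others, and the gene entered the tests through this group alone, so it had to be high there. Of the 10 spots of its probe, 9 and 8 were above background on the LPS+HF arrays, 1 and 1 on the LPS arrays, 2 and 0 on the HF arrays and 1 and 1 on the control arrays. The median spot had a processed signal of 34.3 and 29.2 on LPS+HF arrays, 7.98 and 10 on LPS arrays, 11.6 and 9.46 on HF arrays and 8.19 and 10.8 on control arrays.

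**Figure D2:**
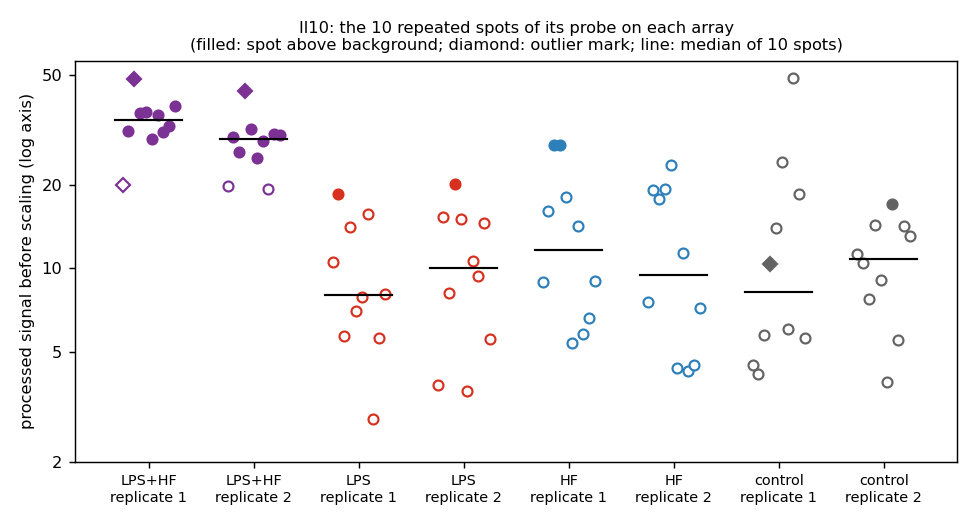
Processed signal before scaling (vertical axis, log scale) of the 10 repeated spots of the Il10 probe on each of the 8 arrays; filled points are spots above background, diamonds are spots marked as outliers by the scanner software and lines are medians. Medians were 34.3 and 29.2 on the LPS+HF arrays and at most 11.6 on the others.

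No difference of Il10 passed the main test. HF added to LPS gave 0.99 ± 0.25 (at least 1.11-fold, adjusted p = 0.0757), LPS+HF minus HF 1.2 ± 0.25 (at least 1.2-fold, adjusted p = 0.120) and LPS+HF minus control 0.64 ± 0.25 (at least 1.27-fold, adjusted p = 0.162). These folds are set against the detection limit, to which the LPS+HF signal itself lay close. After the spatial correction, which masked 3 of the 10 spots on control replicate 1, LPS+HF minus LPS was 1.01 and LPS+HF minus control 1.04. Since the filter admitted Il10 through the LPS+HF arrays, its p-values in these comparisons support no direction. The scale also matters, as it does for every gene here. The 75th percentile by which each array was divided was 527 and 454 on LPS+HF arrays and 282 and 286 on LPS arrays. It was 346 and 472 on HF arrays and 247 and 262 on control arrays. Before scaling Il6st was 899 and 768 on LPS+HF arrays and 602 and 614 on LPS arrays, while its scaled difference was -0.33. Il27 differed in the same way, whereas Il6 was lower on LPS+HF arrays before and after scaling. Under normexp with quantile normalization LPS+HF minus LPS of Il10 was 0.24. The part of brightness and array position in the Il10 values was not tested.

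**Figure D3:**
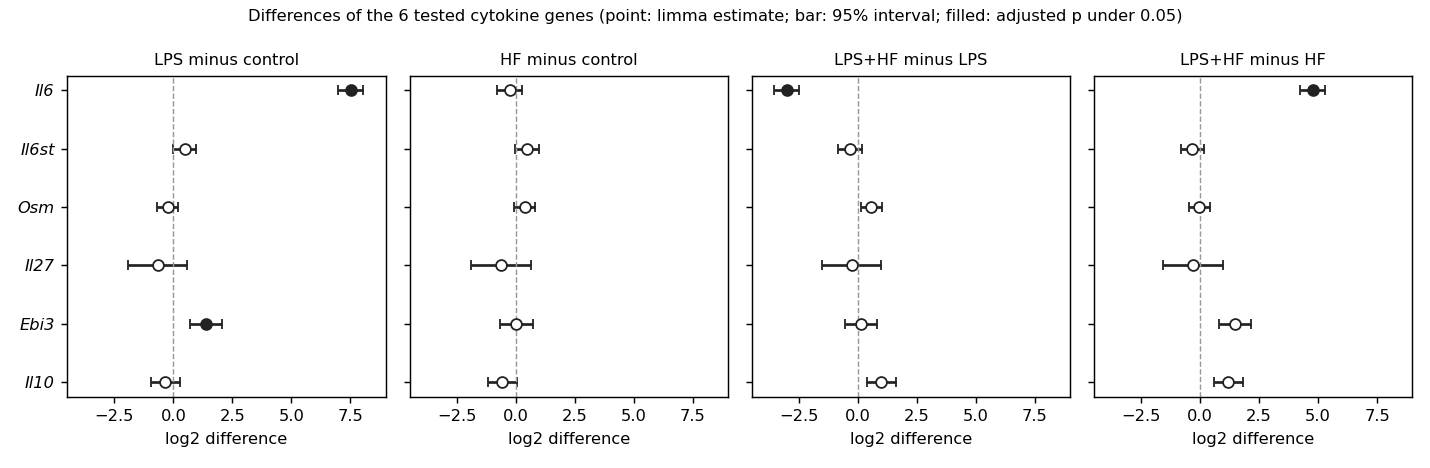
Log2 differences (horizontal axis) of the 6 tested genes in 4 comparisons, as limma estimates with 95% intervals; filled points passed at an adjusted p under 0.05. Il6 passed in 3 of the panels and Ebi3 for LPS minus control, and no gene passed for HF minus control.

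Set against all genes, the counts were as follows. For LPS minus control 2 of the 6 tested genes passed, both higher (Il6 and Ebi3), beside 11.1% of all genes (4.8% higher and 6.34% lower). For HF minus control 0 of 6 passed by limma, beside 0.882% of all genes (0.142% higher and 0.739% lower), among which 4425 genes had an unadjusted p under 0.05. For LPS+HF minus LPS 1 passed, Il6, which was lower, beside 6.25% of all genes (2.99% higher and 3.26% lower). For LPS+HF minus HF 1 passed, Il6, beside 1.28% (0.904% higher and 0.374% lower). For LPS+HF minus control 2 passed, Il6 and Ebi3, beside 5.09% (1.92% higher and 3.17% lower). The comparisons share arrays, and Il6 and Il10 reached the tests only through groups that received LPS (Il6) or LPS+HF (Il10), where they had to be higher than in the groups below background.

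The count for LPS+HF minus LPS moved when either control array was left out, although neither is in that comparison, since the spread between them enters the shared error. Without control replicate 1, 4 of the 6 passed (Il6, Il6st and Osm, and Il10, which the filter had admitted through LPS+HF), while over all genes 6567 of 22460 passed. The same 4 passed without control replicate 2, again with 6567 genes in all, and without both marked arrays, with the estimates unchanged. When single arrays were left out, LPS minus control ranged over 7.40 to 7.65 for Il6 and 1.05 to 1.70 for Ebi3. It ranged over 0.19 to 0.76 for Il6st and -1.50 to 0.18 for Il27. The spots of Il6st and Il27 on control replicate 1 were masked by the spatial correction.

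Of 11 listed receptor genes 6 were measured, and with LPS 1 fell, beside 6.34% of all genes: Il6ra, the IL-6 binding chain, with levels of 3.26 and 3.07 on LPS+HF arrays, 2.08 and 2.06 on LPS arrays, 3.91 and 4.03 on HF arrays and 3.08 and 3.95 on control arrays. LPS minus control of Il6ra was -1.45 ± 0.29 (adjusted p = 0.0302), and HF added to LPS gave 1.09 with an adjusted p of 0.0812. The median over the 6 receptors was -0.03 for LPS minus control, beside -0.08 over all genes, and 0.37 for LPS+HF minus LPS, beside -0.07. No receptor passed for LPS+HF minus LPS in the main fit, whereas without control replicate 1 there were 2 higher and 2 lower (Il6ra, Il10rb, Il11ra1 and Il12rb1), and after the spatial correction 3 higher and 2 lower, when 6567 and 6620 of all 22460 genes passed. Lifr, Osmr, Cntfr, Il23r and Il27ra were not above background on both arrays of any group.

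Of 8 listed Janus kinase and STAT genes 6 were measured, and 1 rose with LPS, beside 4.8% of all genes. This was Jak1, a kinase bound to gp130 and to the IL-10 receptor, by 0.82 ± 0.16 (limma, adjusted p = 0.0279). The Jak1 call held in 11 of 22 alternative fits. The median of the 6 was 0.43, beside -0.08 over all genes, and 0.70 without control replicate 1. Of 9 feedback inhibitors 8 were measured, and 1 fell, beside 6.34% of all genes. This was Cish, a STAT-induced suppressor of cytokine signalling, by 1.01 (limma, adjusted p = 0.0229). The Cish call held in 14 of 22 alternative fits. Neither list had a member that passed for LPS+HF minus LPS in the main fit. After the spatial correction Ptpn11 and Stat2 passed in that comparison (1 higher and 1 lower), when 6620 of all 22460 genes passed. Among the feedback inhibitors Pias1 and Ptpn6 then passed as higher. For LPS minus control the same correction gave 4 Janus kinase and STAT genes higher (Jak1, Jak2, Stat2 and Stat3), when 2960 of all genes were higher. Socs3, a STAT3-induced inhibitor of gp130 signalling, then passed as higher beside Cish as lower. Of the 6 other ligands of these families 3 were measured, and none passed.

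Of 16 genes known as targets of STAT3 or of the IL-10 response 15 were measured, and LPS minus control had 8 higher and 1 lower, with a median of 2.18 beside -0.08 over all genes and 4.8% of them higher. The median was 1.29 without control replicate 1 and 1.31 after the spatial correction. The 4 with the smallest adjusted p were Lcn2, a siderophore-binding protein, at 7.66 ± 0.20, Saa3, an acute-phase apolipoprotein, at 6.90 ± 0.21, Hp, the haemoglobin-binding haptoglobin, at 3.72 ± 0.16 and Il1rn, the interleukin-1 receptor antagonist, at 3.55 ± 0.20. Their adjusted p-values lay between 0.000124 and 0.00113. Several of these genes are also known NF-kB targets.

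When HF was added to LPS, 4 of those 15 were lower and 2 were higher, with a median of -0.22, beside 3.26% lower, 2.99% higher and a median of -0.07 over all genes. Il1rn had levels of -2.35 and -2.48 on LPS+HF arrays, 0.64 and 0.48 on LPS arrays, -4.27 and -4.78 on HF arrays, which were below background, and -2.92 and -3.06 on control arrays. The LPS+HF arrays of Il1rn thus lay nearer to control than to LPS. The LPS+HF minus LPS difference was -2.98 ± 0.20 for Il1rn (adjusted p = 0.00801), -1.38 ± 0.20 for Lcn2 (adjusted p = 0.0229) and -1.09 ± 0.16 for Hp (adjusted p = 0.0229). Fos, an AP-1 subunit, rose by 2.03 ± 0.22 (adjusted p = 0.0121), with levels of 3.56 and 2.95 on LPS+HF arrays and 1.32 and 1.12 on LPS arrays. Il1rn was at least 2.48-fold lower on HF arrays than on control arrays (-1.54, limma, adjusted p = 0.0401). That call held in 7 of 21 alternative fits and was lost without control replicate 1 or either HF array.

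Of the 6 calls for LPS+HF minus LPS median scaling kept 1, Il1rn, and quantile normalization kept 4 of them (Fos, Hp, Il1rn and Lcn2). After the spatial correction the count was 4 higher and 7 lower, when 3665 of all 22460 genes were higher and 2955 lower. For LPS minus control it was 10 higher and 1 lower after that correction, when 2960 of all genes were higher and 3539 lower.

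Of 18 transcription factors known to act on these cytokine genes 17 were measured, and 5 rose with LPS, beside 4.8% of all genes. Their median was 0.89, beside -0.08 over all genes, but 0.16 without control replicate 1 and 0.23 after the spatial correction. After that correction 8 were higher and 1 lower, when 2960 of all 22460 genes were higher and 3539 lower. Batf, an AP-1 family factor, was at least 43.2-fold higher (6.27 ± 0.26, adjusted p = 0.000397), and Nfkbiz, the nuclear inhibitor-kappa-B protein required for Il6 transcription in macrophages, rose by 3.41 ± 0.14 (adjusted p = 0.000371). The NF-kB subunit genes Relb and Nfkb2 rose by 1.58 and 1.30 (adjusted p = 0.00944 and 0.00578). Adding HF to LPS gave 1 higher and 1 lower, with a median of 0.16 beside -0.07. After the spatial correction it gave 6 higher and 3 lower, when 3665 of all 22460 genes were higher and 2955 lower. Batf had levels of 2.68 and 2.51 on LPS+HF arrays and 0.89 and 0.92 on LPS arrays (1.69 ± 0.26, adjusted p = 0.0249). Atf3, a repressor of LPS-induced genes, had levels of 4.15 and 3.84 on LPS+HF arrays and 5.18 and 5.11 on LPS arrays (-1.15 ± 0.18, adjusted p = 0.0262). Nfkbiz stood at 0.39 and 0.46 on LPS+HF arrays and 0.47 and 0.41 on LPS arrays, a difference of -0.01 (adjusted p = 0.971).

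Proteins that set the stability of cytokine messenger RNA were measured for all 10 listed genes. With LPS 2 rose and 1 fell, beside 11.1% of all genes called, with a median of -0.27 beside -0.08: Zc3h12a (Regnase-1), an RNase that degrades Il6 messenger RNA, by 1.88 ± 0.16 (adjusted p = 0.00355), its relative Zc3h12c by 0.84 ± 0.16 (adjusted p = 0.0279), and Arid5a, which stabilises Il6 messenger RNA, at -0.89 ± 0.19 (adjusted p = 0.0365). With HF added to LPS 1 of 10 rose, near the 6.25% of all genes called: Zfp36l2, a relative of the decay factor tristetraprolin (0.73 ± 0.14, adjusted p = 0.0371). Zc3h12a was at -0.09 and -0.05 on LPS+HF arrays and at -0.19 and 0.00 on LPS arrays, a difference of 0.02 (adjusted p = 0.957). After the spatial correction 5 of the 10 were higher for LPS+HF minus LPS, when 3665 of all 22460 genes were higher. These 5 were Arid5a, Dusp1, Elavl1, Rc3h1 and Zfp36l2. The interaction passed for no gene of any list in the main limma fit, where 2595 genes had an unadjusted p under 0.05. After the spatial correction Lcn2 and Bcl3 passed as lower, when 816 of all genes passed.

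**Figure D4:**
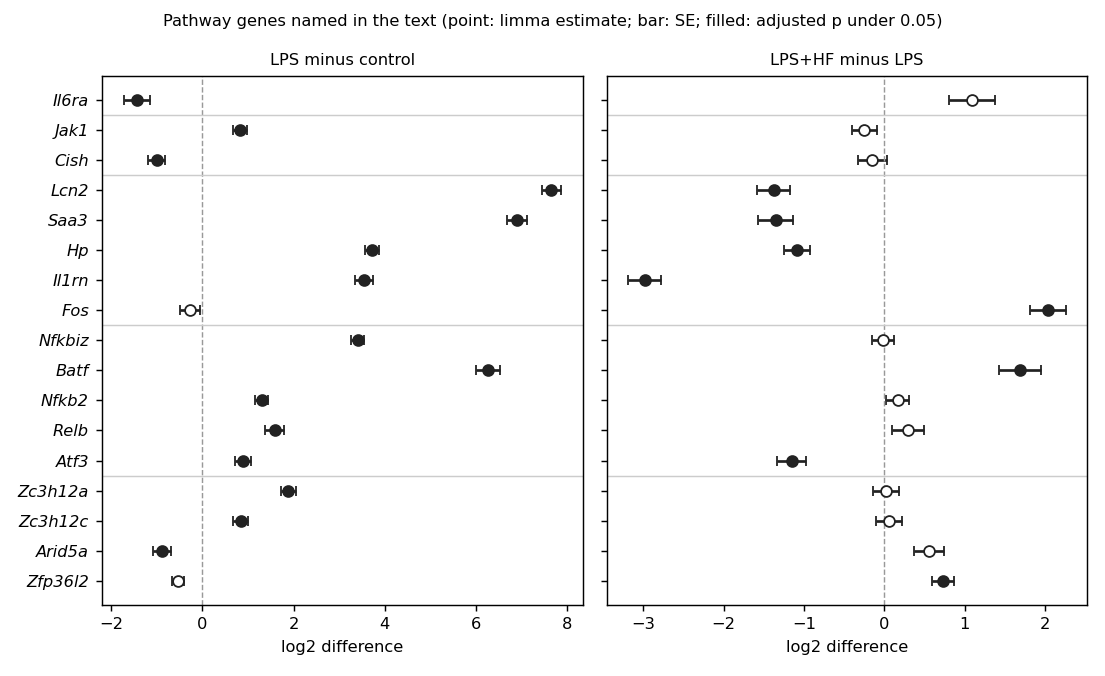
Log2 differences (horizontal axis, own range in each panel) with SE for 17 pathway genes, LPS minus control on the left and LPS+HF minus LPS on the right; the panels share the LPS arrays, and filled points passed at an adjusted p under 0.05. Il1rn, Lcn2, Saa3 and Hp passed as higher on the left and lower on the right, whereas Nfkbiz and Zc3h12a were near 0 on the right.

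LPS+HF against control and against HF showed which of these genes stayed raised with both agents. For LPS+HF minus control the STAT3 and IL-10 response list had 8 higher and 1 lower of 15, and the transcription factors 4 higher of 17. Over all genes 1.92% were higher and 3.17% lower in that comparison. Lcn2 was 6.28 ± 0.20, Saa3 5.55 ± 0.21, Hp 2.64 ± 0.16 and Cebpd, a C/EBP family activator of acute-phase genes, 1.58 ± 0.13 above control, with adjusted p-values of 0.000342 to 0.00454. The Cebpd spot of control replicate 1 was masked by the spatial correction, which gave 1.58. For LPS+HF minus HF, where 0.904% of all genes were higher, the STAT3 and IL-10 response list had 6 higher. Among them was Myc, a growth regulator induced by STAT3, at least 8.38-fold (limma, adjusted p = 0.00367). Myc was below background on the HF and control arrays and passed the filter only through groups that received LPS. Its p-values against HF and control, and its place in these counts, therefore support no direction by themselves. The transcription factors again had 4 higher: Batf (7.19), Nfkbiz (3.17), Relb (1.83) and Nfkb2 (1.15). Batf, too, passed the filter only through groups that received LPS, so its calls against HF and control support no direction by themselves. Among the 10 genes of RNA stability, LPS+HF minus control had 3 higher and 1 lower. The higher ones were Zc3h12a at 1.91, Dusp1, a phosphatase that limits p38 kinase, at 1.59, and Zc3h12c at 0.89. The lower one was Zfp36l1, at -1.15 (limma, adjusted p = 0.0458).

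The genes whose pattern was most like that of a cytokine gene were found by Pearson's r over the 8 arrays among 12824 genes with a symbol. The arrays fall into 4 treatments, which r follows, and it is given as a description. Most like Il6 were Gbp2, an interferon-induced GTPase (r = 0.998), Il1b, interleukin-1 beta (r = 0.997), and Casp1, the protease that matures it (r = 0.995). The LPS+HF minus LPS difference was -2.80 for Gbp2 (adjusted p = 0.0105) and -2.33 for Il1b (adjusted p = 0.0116). Casp1 had -0.51 (adjusted p = 0.0812), a smaller difference with the same order of groups.

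Most like Ebi3 were Glipr1 (r = 0.992), Trim36 (r = 0.987) and Cat, the enzyme catalase (r = 0.986), for which LPS+HF minus LPS lay between 0.08 and 0.15. Most like Osm were Uqcc3 (r = 0.989), Poglut3 (r = 0.980) and Irak1, a kinase of Toll-like receptor signalling (r = 0.978), and LPS+HF minus LPS of Irak1 was 1.00 (adjusted p = 0.0493). For Il6st they were Fam210b, Zbtb43 and Vhl (r = 0.961 to 0.976), for Il27 Tle2, Ppara and Astn2 (r = 0.995 each), and for Il10 Eef1e1, Tm4sf5 and Cenpw (r = 0.897 to 0.928). Under normexp with quantile normalization the r of the 3 genes named for Il6st turned negative, and that of Tle2 with Il27 was -0.04. Those of Il10 fell to between 0.31 and 0.76 under the same setting.

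Markers of other cell types were partly above background in these cells. On all 8 arrays this held for 2 of 5 astrocyte, 1 of 5 neuron, 5 of 5 oligodendrocyte, 2 of 6 lymphocyte, 2 of 5 dendritic cell and 1 of 5 fibroblast markers. The astrocyte markers Gja1 and Slc1a2, the neuron markers Nefl and Syt1, the lymphocyte markers Cd3g and Ncr1, the dendritic cell marker Xcr1 and the fibroblast markers Col1a1 and Pdgfra were above background on no array. The summed level of the oligodendrocyte markers was 22.4 to 22.4 on LPS+HF arrays, 37.6 to 41.1 on LPS arrays, 33.8 to 60.5 on HF arrays and 51.0 to 66.9 on control arrays. Of 4 dendritic cell markers measured, 1 was higher for LPS minus control, beside 4.8% of all genes. This was Ccr7, at least 30.8-fold (limma, adjusted p = 0.00271), at 1.04 and 1.21 on LPS arrays and -3.50 and -4.42 on control arrays. Ccr7 reached the tests only through the LPS and LPS+HF groups, and neither control value of it exceeded background. Its p-value and its place in that count therefore support no direction by themselves, and the rise is read from the levels and the least fold. The list median was -0.03, beside -0.08 over all genes. For LPS+HF minus LPS 1 was higher, beside 2.99% of all genes: Flt3, by 1.28 (limma, adjusted p = 0.0305). The list median there was -0.32, beside -0.07. The sum over the dendritic cell markers was 18.5 to 25.3 on LPS+HF arrays, 25.6 to 26.0 on LPS arrays, 25.0 to 25.7 on HF arrays and 29.9 to 45.1 on control arrays. Their part in the cytokine values was not tested. Actb, the beta-actin gene, passed in no comparison, with LPS+HF minus LPS at -0.33 (adjusted p = 0.388). In cultured cells measured in bulk, fewer producing cells and less messenger RNA per cell cannot be told apart.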

How the data were processed

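Per the file headers, the deposited intensity values of each spot were made with Agilent Feature Extraction 11.5.1.1, which subtracted background and corrected trends across the array. The deposited series matrix holds the authors' log2 values; 99.97% of them lay within 0.1 of values recomputed from the intensities (after subtracting the 75th percentile and centring each probe). The probe design uses mm9, per the file headers.

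For this work, spots marked as outliers were dropped, log2 signals of repeated spots were averaged, and each array's 75th percentile was subtracted. Probes were kept if 1 or more groups had them above background on each array, with the brightest probe per gene, giving 22460 genes. Of 55681 probes 50.3% received 1 symbol, through RefSeq transcripts (GRCm38.p6). Group means were fitted with limma 3.58.1 (R 4.3.3; 4 residual and 2.04 prior degrees of freedom), tested two-sided in 6 comparisons with Benjamini-Hochberg adjustment over all genes, and passed at an adjusted p under 0.05. The fit was tested on simulated data. For a group below background on each of its arrays, "at least" folds used the lowest signal above background on each array, or the probe's own where higher; this limit is approximate.

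The 10 genes, the pathway and marker lists and the tests were chosen with earlier results of these data known. Besides the 10 genes, up to 4 passed genes of each list per comparison, the 3 genes of highest r with each tested gene, and Actb are named; other genes were named after their values were seen. Replicate numbers did not pair the arrays (correlations of deviations -0.09 to 0.27). The spatial correction used windows of 30 rows and 15 columns and masked spots in windows whose background-subtracted signal, before the software's trend correction, was dimmed over 4-fold. Tables were made in Python 3.11.15 (pandas 2.3.3, numpy 2.4.6) and plots with matplotlib 3.10.9.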

Additional observations from a re-analysis of the deposited data

Results flagged for a closer look

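Lif and Il23a, which the filter left out, were each above background on a single array that received LPS and HF, and above both control arrays there. Lif stood at -2.29 on LPS+HF replicate 1, where the highest control value was -5.33, while LPS+HF replicate 2 was at -6.66. Il23a stood at -4.18 on LPS+HF replicate 1, where the highest control value was -4.63, and LPS+HF replicate 2 was at -4.47 and not above background. Each rests on 1 spot of 1 array, and no difference was tested.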

How the results depend on the processing

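Of 36 differences of the 6 tested genes, recomputed in up to 22 alternative fits each, 774 values were obtained: 661 kept their direction and side of the threshold, 41 newly passed, 28 fell short and 44 turned direction. None that turned had passed. Of the 45 results for listed genes none turned direction, and 229 of their values fell short. The alternatives for the listed genes and for r were chosen after seeing the data. Where 1 array of a group is dropped, the one that stays is assumed to vary like arrays of the other groups. The cause of the changes below was not tested.

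The number of the 6 genes that passed moved as follows. For LPS minus control it was 1 under normexp with quantile normalization, median scaling, no filter on dim probes, a filter requiring all arrays (which removes Il6), the replicate block, array weights and a fit of only the arrays compared, and 1 to 4 when single arrays were left out. For HF minus control it was 0 to 3 when single arrays were left out. Between LPS+HF and LPS it was 0 with the all-arrays filter, 4 with array weights, 3 after the spatial correction, 2 with the replicate block added to it, 4 in a fit of only the arrays compared, 4 without both marked arrays, and 0 to 4 when single arrays were left out. Between LPS+HF and HF it was 0 with the all-arrays filter, 3 with array weights, 2 after the spatial correction with or without the block, 2 without both marked arrays and 1 to 2 when single arrays were left out. Between LPS+HF and control it was 1 under normexp, median scaling, no filter, the all-arrays filter, the block and array weights, 0 in a fit of only the arrays compared, and 1 to 5 when single arrays were left out. For the interaction it was 1 after the spatial correction with or without the block and 0 to 4 when single arrays were left out. With the replicate number as a block Ebi3 lost both calls (adjusted p = 0.0585 for LPS minus control and 0.0739 for LPS+HF minus control); it changed no other call of these genes. The slide could not be a block, since all arrays share it.

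Differences that turned direction, none of them passed, were these. Under normexp with quantile normalization Il27 was 0.48 for LPS minus control, 0.39 for HF minus control, 0.26 for LPS+HF minus control and -0.61 for the interaction; Ebi3 was -0.49 and Osm -0.0531 for HF minus control, and Osm was -0.17 for LPS+HF minus control. The r with Il6st became -0.77 for Fam210b, -0.63 for Zbtb43 and -0.78 for Vhl, and that of Tle2 with Il27 -0.0431. Under quantile normalization alone Ebi3 was -0.0141 and Il10 0.15 for HF minus control, and Il10 0.26 for LPS minus control. Under median scaling Il6 was 0.13 for HF minus control, Osm 0.12 and Il10 0.0038 for LPS minus control, Osm 0.0725 for LPS+HF minus HF, and the interaction -0.14 for Ebi3 and -0.0435 for Osm. After the spatial correction Il6st was -0.0206 for LPS+HF minus control, Il27 0.14 for LPS minus control, 0.13 for HF minus control and -0.32 for the interaction, Ebi3 -0.22 for HF minus control, Osm 0.0375 for LPS+HF minus HF and Il10 0.0330 for LPS minus control. With the block added Il27 was 0.10 for LPS minus control, 0.0861 for HF minus control and -0.28 for the interaction, with Ebi3, Osm and Il10 as without it. Without both marked arrays Il6st was -0.14 for LPS+HF minus control, Il27 0.18 for LPS minus control and -0.25 for the interaction, and Ebi3 -0.16 for HF minus control. Leaving out single arrays, Il6st for LPS+HF minus control ranged over -0.14 to 0.43, Il27 over -1.50 to 0.18 for LPS minus control, -1.46 to 0.21 for HF minus control and -0.48 to 1.19 for the interaction, Ebi3 over -0.29 to 0.36 for HF minus control, -0.14 to 0.39 for LPS+HF minus LPS and -0.23 to 0.41 for the interaction, and Osm over -0.20 to 0.12 for LPS+HF minus HF.

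Over all genes, the number that passed for LPS minus control was 2502 and ranged over 67 to 11823, for LPS+HF minus LPS 1404 and 0 to 8313, for HF minus control 198 and 0 to 10169, for LPS+HF minus HF 287 and 56 to 1147, for LPS+HF minus control 1144 and 0 to 11351, and for the interaction 12 and 0 to 7934. With median scaling the all-gene median was 0.27 in place of -0.08 for LPS minus control, 0.32 in place of -0.07 for HF minus control and 0.36 in place of -0.13 for LPS+HF minus control, and the share of higher calls was 68.6% against 43.1%, 32.4% against 16.2% and 63.1% against 37.7%. Between LPS+HF and LPS that share was 30.1% under normexp against 47.9%, and for LPS+HF minus HF 82.6% under median scaling and 91.8% under normexp against 70.7%. Signal over background limits Il10, Il12a, Il23a, Lif and the groups without LPS for Il6.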
